A study of Rattus norvegicus with 8 samples.

Results

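The genes described here are 10 components of the inflammasome and of the IL-1 family: the sensors Nlrp3 and Aim2, the adaptor Pycard, the inflammatory caspases Casp1 and Casp4, the pore-forming substrate Gsdmd, and the cytokine genes Il1a, Il1b, Il18 and Il1rn. They were taken from the deposited count table by symbol, and all 10 symbols were found among its 23487 genes. RNA-seq had been run on sorted peritoneal macrophages of 8 female Wistar rats, an outbred strain, aged 8 weeks, each rat giving 1 library. Rats 3, 5, 10 and 11 had received a single intraperitoneal injection of 2 mg of CNT-7, a needle-like multi-walled carbon nanotube that causes mesothelioma in rats, and rats 1, 2, 12 and 13 the same dose of CNT-T, a tangled nanotube that does not. Cells with high CD11b/c and dim His48 staining were sorted 15 days later. Untreated rats were not analysed here, so each difference below is between both particles and neither group is a baseline. Each library held between 27195157 and 33732981 counts, so that 3 counts corresponded to 0.0887 to 0.109 CPM (counts scaled to a library of 1000000 after TMM normalization).

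An inflammasome is a complex that a sensor such as NLRP3 or AIM2 builds with the adaptor ASC, the product of Pycard, to activate caspase-1. Caspase-1 matures IL-1β and IL-18 and cuts gasdermin D, whose fragments open pores in the plasma membrane, whereas IL-1α is active without this cleavage and the IL-1 receptor antagonist, the product of Il1rn, blocks the receptor of both IL-1 cytokines. Long stiff fibres taken up by macrophages are a known trigger of NLRP3. Assembly and cleavage take place on protein, and transcript counts do not measure them.

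The cytokine gene Il1b rose in the macrophages of CNT-7-treated rats, by 6.11-fold, while Casp1 and Il18 fell by 15.8% and 19.4% of their fitted CNT-T level. These 3 genes of 10 (30%) passed the quasi-likelihood test of edgeR at an adjusted p (Benjamini-Hochberg) under 0.10, a share near the 27.9% of all 12124 genes tested. At an adjusted p under 0.05 Il1b remained as 1 of 10, against 20.7% of the genes tested, and DESeq2 called 5 of 10 at 0.10, against 26.1% of the genes it tested. All 10 genes passed the filter on low counts. Of the 10 fold changes, 4 were above 0 and 6 below, with a median of -0.15 on the log2 scale against 0.0083 over all genes tested. The values of Il1b and Aim2 did not overlap between the groups, and 24.9% of all genes tested had none either. In bulk RNA of sorted cells, fewer cells of a type and less RNA per cell cannot be told apart. The p-values measure the spread between these rats.

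**Figure D1:**
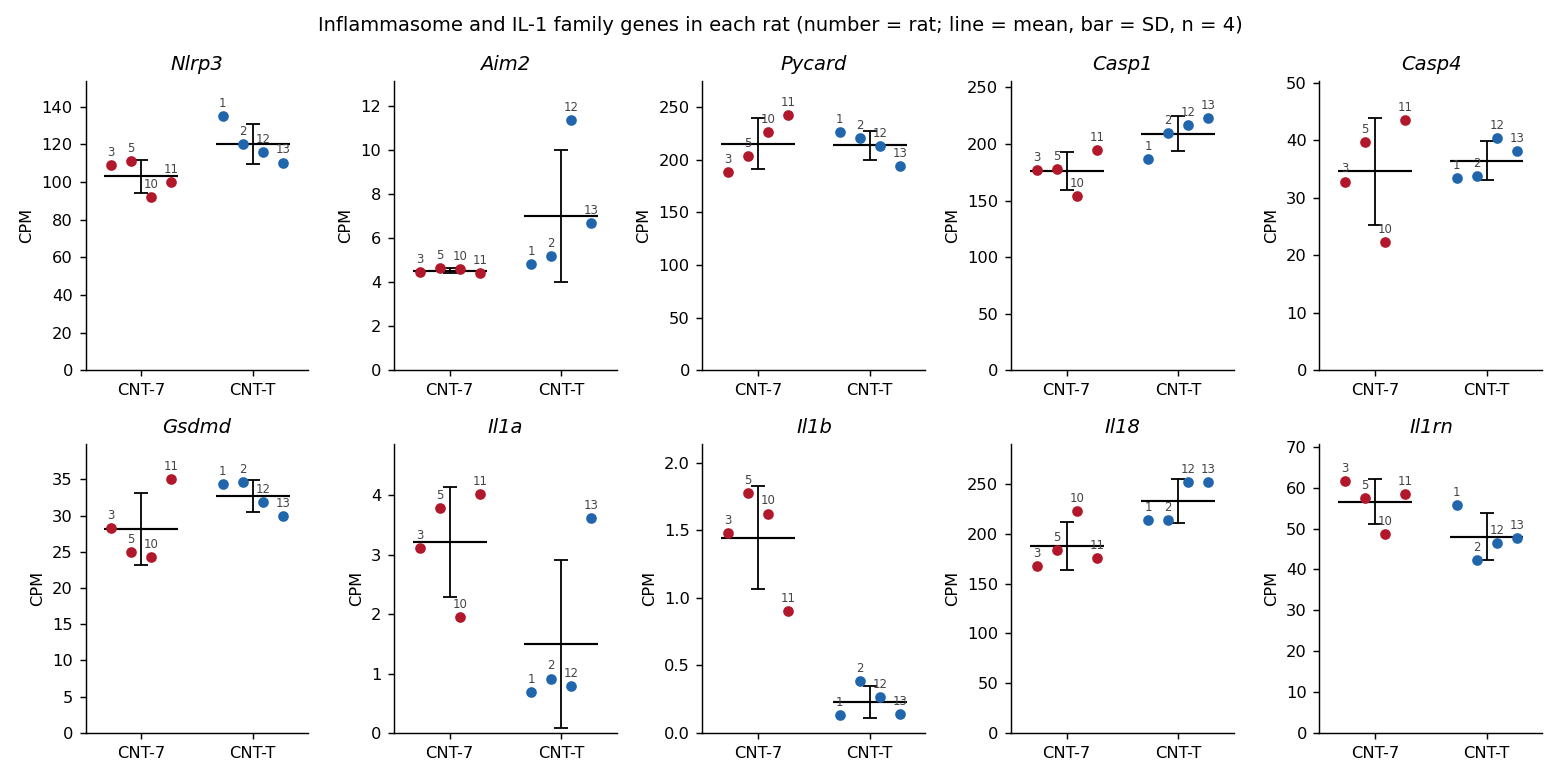
CPM of the 10 genes (vertical axes, linear from 0) in each CNT-7 rat (red) and CNT-T rat (blue), with the rat number above each point, the mean as a line and the SD as a bar (n = 4). Il1b ran from 0.905 to 1.78 CPM after CNT-7 and from 0.130 to 0.384 after CNT-T, whereas the Pycard and Casp4 points of both groups cover each other.

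Il1b (ENSRNOG00000004649), the gene of the secreted cytokine IL-1β, was at a low level in these cells. It had 1.48, 1.78, 1.62 and 0.905 CPM in CNT-7 rats 3, 5, 10 and 11, and 0.130, 0.384, 0.264 and 0.143 CPM in CNT-T rats 1, 2, 12 and 13. Every CNT-7 rat lay above every CNT-T rat, rat 11 being the lowest after CNT-7 and rat 2 the highest after CNT-T. These values rest on 45, 53, 45 and 25 counts after CNT-7 and on 4, 13, 8 and 4 after CNT-T, and only 1 CNT-T rat had 10 counts or more. The gene therefore entered the test mainly through the CNT-7 group. The means were 1.45 ± 0.381 and 0.23 ± 0.119 CPM (SD, n = 4 each), and the log2 fold change, given throughout for CNT-7 relative to CNT-T, was 2.61 (SE 0.39, adjusted p = 0.0020, edgeR). A larger change in either direction was found in 1.37% of the genes tested. With any 1 rat omitted, the Il1b log2 fold change stayed between 2.42 and 2.98, with edgeR's adjusted p between 0.0013 and 0.0091.

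Il1a (ENSRNOG00000004575) encodes IL-1α, which is active on release from damaged cells. Its level was 3.12, 3.79, 1.95 and 4.02 CPM in CNT-7 rats 3, 5, 10 and 11, and 0.685, 0.916, 0.791 and 3.62 CPM in CNT-T rats 1, 2, 12 and 13. The groups overlapped because of CNT-T rat 13, which lay among the CNT-7 rats, while the other three CNT-T rats were below all of them. The log2 fold change was 1.11 (SE 0.52, adjusted p = 0.17, edgeR). Without CNT-T rat 13 it was 2.00, with edgeR's adjusted p = 0.0046, and leaving out any other rat gave no call.

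Il1a and Il1b are neighbouring protein-coding genes on chromosome 3 of the RefSeq assembly GRCr8. The 250 bases before the RefSeq start of each are shown, 5′ to 3′ on the strand of the gene, because they belong to the IL-1 gene that passed as higher and to its neighbour, which did not pass. Capitals mark matches to the searched motifs. The Il1b window is chr3:137036582-137036831 and the Il1a window is chr3:136990018-136990267, both on the minus strand.
Il1b: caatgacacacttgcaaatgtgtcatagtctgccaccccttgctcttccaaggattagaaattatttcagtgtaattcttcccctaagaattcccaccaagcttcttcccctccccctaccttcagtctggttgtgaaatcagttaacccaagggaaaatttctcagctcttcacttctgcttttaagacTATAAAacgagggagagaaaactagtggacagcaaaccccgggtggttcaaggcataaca
Il1a: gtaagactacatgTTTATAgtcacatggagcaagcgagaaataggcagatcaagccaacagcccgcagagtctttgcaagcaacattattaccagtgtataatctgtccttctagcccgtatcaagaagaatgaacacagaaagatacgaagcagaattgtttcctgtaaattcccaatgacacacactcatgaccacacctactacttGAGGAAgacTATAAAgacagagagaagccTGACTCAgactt
The Il1b window held TATAAA, the TATA box, 60 bases before the start, and no match to the other motifs searched. That of Il1a held TATAAA 32 bases before the start and again on the other strand at 237, GAGGAA, the core of the PU.1 motif, at 41, and the AP-1 motif TGANTCA at 12. Over 33469 RefSeq promoter windows of this length, searched on both strands, 12.9% held TATAAA, 23.3% GAGGAA and 6.34% TGANTCA. A match describes the letters and not binding.

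Il1rn (ENSRNOG00000005871), the gene of the IL-1 receptor antagonist, had 61.7, 57.5, 48.7 and 58.6 CPM in CNT-7 rats 3, 5, 10 and 11, and 55.8, 42.3, 46.5 and 47.6 CPM in CNT-T rats 1, 2, 12 and 13. Rats 3, 5 and 11 lay above all CNT-T rats, while rat 10 fell below CNT-T rat 1. The difference did not pass the test (log2 fold change 0.24, SE 0.10, adjusted p = 0.14, edgeR), although it did without CNT-7 rat 10 (0.063) or without CNT-T rat 1 (0.052).

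The balance between the antagonist and the cytokine was followed within each rat as a log2 ratio of CPM. The ratio itself depends on the lengths of both genes, which cancel in its difference between the groups. The ratio of Il1rn to Il1b was 5.26 ± 0.48 after CNT-7 and 7.41 ± 0.71 after CNT-T (SD, n = 4 each), a difference of -2.15. A two-sided exact permutation test gave p = 0.0286, the smallest value that 4 against 4 rats allow, and 0.0857 after Benjamini-Hochberg adjustment over 6 ratios. For Il1rn against Il1a the difference was -1.12 (exact permutation p = 0.143, adjusted 0.286). Il1b against Il1a differed by 1.03 (exact permutation p = 0.229, adjusted 0.343), so that the pair was not shown to change unequally. With 1 rat left out the smallest p that can be reached is 0.0571, and no ratio passed after adjustment.

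Il18 (ENSRNOG00000009848) encodes a cytokine that, unlike IL-1β, many resting macrophages already make as a precursor. Its level was 168, 184, 223 and 176 CPM in CNT-7 rats 3, 5, 10 and 11, and 214, 214, 252 and 252 CPM in CNT-T rats 1, 2, 12 and 13. CNT-7 rat 10 lay above CNT-T rats 1 and 2, and the other three CNT-7 rats were below every CNT-T rat. The means were 188 ± 24.4 and 233 ± 22 CPM, and Il18 passed the test as lower after CNT-7 (log2 fold change -0.31, SE 0.11, adjusted p = 0.066, edgeR). The call held in 3 of 8 fits with 1 rat left out, those without CNT-7 rat 10, CNT-T rat 1 or CNT-T rat 2. Without CNT-7 rat 3, 5 or 11 edgeR's adjusted p was 0.16, 0.14 and 0.13, and without CNT-T rat 12 or 13 it was 0.16 and 0.14, while the log2 fold change stayed between -0.40 and -0.26.

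Among the sensors, Nlrp3 (ENSRNOG00000003170), which responds to fibres, crystals and membrane damage, had 109, 111, 91.9 and 100.0 CPM in CNT-7 rats 3, 5, 10 and 11, and 135, 120.2, 116 and 110.4 CPM in CNT-T rats 1, 2, 12 and 13. Only CNT-T rat 13 reached into the CNT-7 range, just below CNT-7 rat 5. The fitted level was 14.4% lower after CNT-7, with a log2 fold change of -0.22 (SE 0.088) and an adjusted p of 0.104 in edgeR's test, just outside the threshold. Without CNT-T rat 13 edgeR's adjusted p for Nlrp3 was 0.080, and without any other rat it was between 0.11 and 0.23. When a term for low and high rat numbers was added to the fit, edgeR's adjusted p was 0.046 and Nlrp3 passed as lower.

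Aim2 (ENSRNOG00000003480), the sensor of DNA in the cytosol, had 4.43, 4.62, 4.59 and 4.42 CPM in CNT-7 rats 3, 5, 10 and 11, and 4.83, 5.17, 11.3 and 6.66 CPM in CNT-T rats 1, 2, 12 and 13. The CNT-7 rats were close together and all below the CNT-T rats, of which rats 1 and 2 were near the CNT-7 level and rat 12 far above it. The means were 4.51 ± 0.105 and 7.0 ± 3.0 CPM, and the log2 fold change of -0.63 (SE 0.26) did not pass (adjusted p = 0.12, edgeR). Without CNT-T rat 12 it was -0.30, and without CNT-T rat 1 or 2 edgeR's adjusted p was 0.061 and 0.092.

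The adaptor gene Pycard (ENSRNOG00000019675) had 188, 204, 226 and 243 CPM in CNT-7 rats 3, 5, 10 and 11, and 226, 221, 213 and 194 CPM in CNT-T rats 1, 2, 12 and 13. The CNT-7 rats ran from below to above the CNT-T rats. Its log2 fold change of 0.010 (SE 0.093, adjusted p = 0.95, edgeR) was smaller in size than that of 96.9% of the genes tested.

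Casp1 (ENSRNOG00000007372), the gene of the protease that matures IL-1β and IL-18, had 177, 178, 154 and 195 CPM in CNT-7 rats 3, 5, 10 and 11, and 187, 209.8, 217 and 223 CPM in CNT-T rats 1, 2, 12 and 13. The groups overlapped in 1 pair of rats, CNT-7 rat 11 being above CNT-T rat 1. The means were 176 ± 16.6 and 209 ± 15.6 CPM, and Casp1 passed as lower after CNT-7 (log2 fold change -0.25, SE 0.089, adjusted p = 0.079, edgeR). Leaving out either rat of that pair kept the call. Without CNT-7 rat 3, 5 or 10 edgeR's adjusted p was 0.14, 0.14 and 0.17, and without CNT-T rat 2, 12 or 13 it was 0.14, 0.17 and 0.15.

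Casp4 (ENSRNOG00000033697), whose product senses bacterial lipopolysaccharide and cuts gasdermin D, had 32.8, 39.7, 22.4 and 43.5 CPM in CNT-7 rats 3, 5, 10 and 11, and 33.4, 33.8, 40.4 and 38.2 CPM in CNT-T rats 1, 2, 12 and 13. The CNT-T rats lay inside the range of the CNT-7 rats. The log2 fold change was -0.075 (SE 0.18, adjusted p = 0.81, edgeR) and changed sign when CNT-7 rat 10 was left out. Gsdmd (ENSRNOG00000007728), the gene of the pore-forming protein, had 28.3, 25.0, 24.3 and 35.0 CPM in CNT-7 rats 3, 5, 10 and 11, and 34.3, 34.6, 31.9 and 30 CPM in CNT-T rats 1, 2, 12 and 13. Rats 3, 5 and 10 were below all CNT-T rats and rat 11 above all of them. With rat 11 the log2 fold change was -0.22 (SE 0.12, adjusted p = 0.24, edgeR), and without it -0.34, with edgeR's adjusted p = 0.027.

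**Figure D2:**
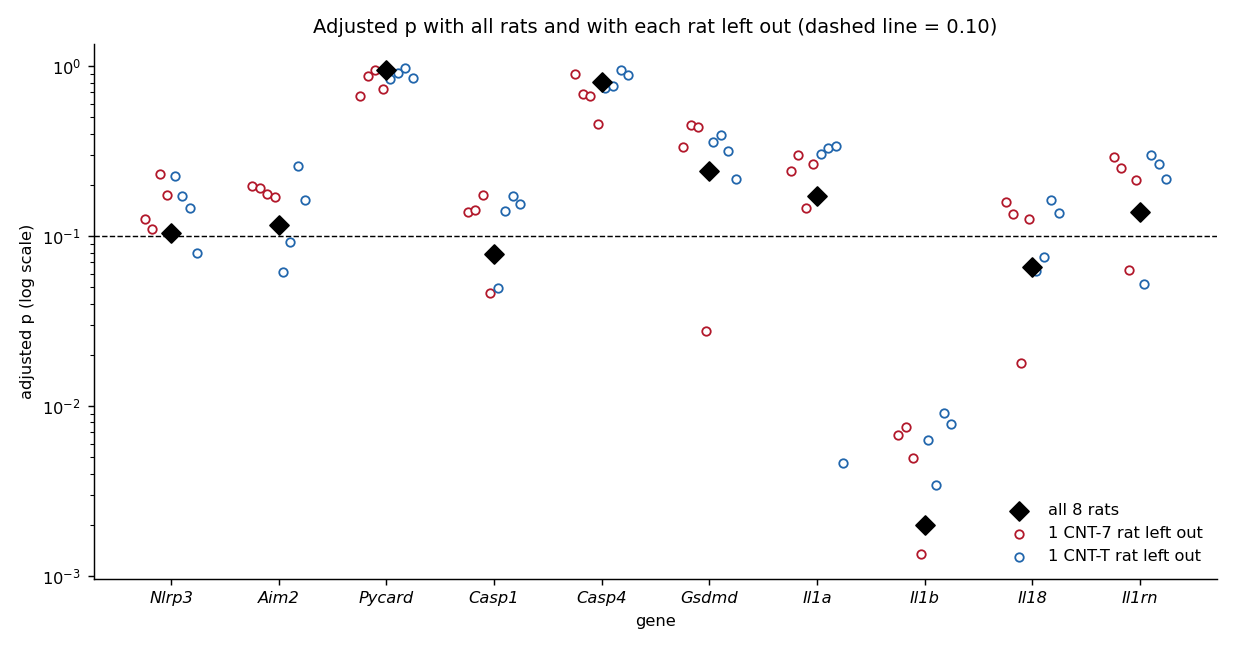
Adjusted p of edgeR's test (vertical axis, log scale) for each of the 10 genes, with all 8 rats (black diamonds) and with 1 CNT-7 rat (red circles) or 1 CNT-T rat (blue circles) left out, the dashed line marking 0.10. Il1b lies below the line in 8 of 8 fits, Casp1 in 2 and Il18 in 3, and Il1a crosses it in 1.

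Within the CNT-7 group, Casp1, Casp4, Gsdmd and Il1a shared an order in which rat 10 was the lowest and rat 11 the highest. This order, which was noticed after the values were seen, was found in 4 of the 10 genes, in 17 of 60 tested genes of the pathway lists below (28.3%) and in 13.3% of all genes tested. The listed genes included the interferon-inducible Gbp2, Gbp5, Irf1 and Zbp1. Gbp5, a GTPase that promotes NLRP3 assembly, had 24.3 CPM in rat 10 and 52.7 in rat 11, against 37.7 to 44.2 CPM in CNT-T rats. Zbp1, a sensor of Z-form nucleic acids, spread further, from 7.29 CPM in rat 10 to 52.3 in rat 11.

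The promoter windows of Casp1 and Il18 are shown because these genes were the members that passed as lower. In GRCr8 that of Casp1 is chr8:10872580-10872829 and that of Il18 is chr8:59801822-59802071, both on the plus strand, with motif matches again in capitals.
Casp1: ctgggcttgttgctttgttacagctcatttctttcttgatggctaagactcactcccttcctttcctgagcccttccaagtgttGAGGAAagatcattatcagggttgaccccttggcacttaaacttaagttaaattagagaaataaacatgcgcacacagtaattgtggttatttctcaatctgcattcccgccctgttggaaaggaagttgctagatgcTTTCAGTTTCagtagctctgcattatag
Il18: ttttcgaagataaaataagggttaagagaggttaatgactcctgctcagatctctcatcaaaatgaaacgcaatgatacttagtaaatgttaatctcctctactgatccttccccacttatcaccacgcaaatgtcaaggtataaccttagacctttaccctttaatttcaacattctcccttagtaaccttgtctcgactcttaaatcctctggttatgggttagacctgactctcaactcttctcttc
The Casp1 window held GAGGAA 166 bases before the start and the interferon-stimulated response element (ISRE), on the other strand, at 28, a motif found in 3.41% of all windows. None of the 7 motifs searched, which also included those of NF-kappaB (6.33% of windows), C/EBP (TTGCNNAA, 9.22%) and STAT factors (TTCNNNGAA, 7.67%), was found in the Il18 window.

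Beyond the 10 genes, 5 lists of related genes were examined, which had been chosen with earlier results of these data known. Of 77 listed genes, 71 were in the table and 60 were tested, of which 16 were higher and 5 lower after CNT-7 (35.0%, against 27.9% of all genes tested). Their median log2 fold change was 0.063.

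Ligands and receptors of the IL-1 family gave 5 higher and 0 lower genes among the 9 tested of 17 in the table, and of all genes tested 13.9% were higher and 14.0% lower. Il18rap, the signalling chain of the IL-18 receptor, had 18.4, 6.03, 5.42 and 5.0 CPM in CNT-7 rats 3, 5, 10 and 11, and 1.37, 2.81, 1.55 and 1.61 CPM in CNT-T rats 1, 2, 12 and 13. The groups did not overlap, and CNT-7 rat 3 stood far above the others. The log2 fold change was 2.24 (SE 0.46, adjusted p = 0.0083, edgeR), and 1.57 without rat 3. That rat also had 8.74 CPM of Ccr3, a chemokine receptor of eosinophils and mast cells, against 0.107 to 0.637 CPM in the other rats. Of the 8 markers listed for those cells, Il5ra was also highest in rat 3, at 0.558 CPM. Cpa3, at 0.460 CPM, lay within the range of the other rats. Kit and Prg2 had 1 count each in rat 3, and Epx, Ms4a2 and Tpsab1 had 0. The part of those cells in the result was not tested.

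Il18r1, the binding chain of the same receptor, had 54.9, 80.0, 64.5 and 66.9 CPM in CNT-7 rats 3, 5, 10 and 11, and 32.4, 38.6, 47.5 and 35.1 CPM in CNT-T rats 1, 2, 12 and 13. Its groups did not overlap, and it rose with a log2 fold change of 0.79 (SE 0.14, adjusted p = 0.0043, edgeR). Both chains thus rose while Il18 itself was lower, and both passed without any 1 of the 8 rats. Il18bp, which encodes a soluble inhibitor of IL-18, gave a log2 fold change of 0.11 (SE 0.23, adjusted p = 0.79, edgeR). The log2 ratio of Il18bp to Il18 differed by 0.38 (exact permutation p = 0.343, adjusted 0.40).

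Il33, an alarmin of the same family, had 0.471 to 1.52 CPM after CNT-7 and 0.264 to 0.522 CPM after CNT-T. These are 13 to 42 counts against 8 to 16, and CNT-7 rat 11 lay below CNT-T rats 1 and 13. Il33 passed as higher, with a log2 fold change of 1.31 (SE 0.41, adjusted p = 0.049, edgeR). Its receptor gene Il1rl1 had 572, 492, 528 and 419.7 CPM in CNT-7 rats 3, 5, 10 and 11, and 409.8, 404, 443 and 353 CPM in CNT-T rats 1, 2, 12 and 13. CNT-7 rat 11 was below CNT-T rat 12, the single overlapping pair, and the log2 fold change was 0.32 (SE 0.11, adjusted p = 0.064, edgeR). Il1rap, the accessory chain that the receptors of IL-1 and IL-33 share, gave 0.61 (SE 0.21, adjusted p = 0.065, edgeR), with 40.6 CPM in CNT-7 rat 10 against 20.2 to 23.6 in the other three CNT-7 rats and 15.1 to 18.4 in CNT-T rats. Without rat 10 its log2 fold change was 0.33.

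The signalling receptor gene Il1r1 had 3.15 to 7.46 CPM after CNT-7 and 5.22 to 7.23 CPM after CNT-T and did not pass (log2 fold change -0.38, SE 0.27, adjusted p = 0.36, edgeR). Il1r2, the gene of the decoy receptor, was below the filter, with 4, 16, 8 and 5 counts in CNT-7 rats 3, 5, 10 and 11, and 0, 4, 0 and 0 in CNT-T rats 1, 2, 12 and 13. The log2 ratio of Il1r2 to Il1r1 was -3.89 ± 1.10 after CNT-7 and -6.24 ± 0.68 after CNT-T (difference 2.35, exact permutation p = 0.0286, adjusted 0.0857). The difference was 3.69 with a prior count of 0.5 in place of 2. In CNT-T rats 1, 12 and 13, which had 0 counts of Il1r2, the ratio was set by the prior count and by Il1r1. The size and spread of this ratio are therefore not measured. The number of called genes in the list depended on single rats. It was 2 without CNT-T rat 2, 3 without CNT-7 rat 3 or 10 or without CNT-T rat 12 or 13, and 4 or 5 without one of the remaining rats. Il33 was among those lost without CNT-7 rat 3 or 10 or CNT-T rat 2 or 12 (edgeR's adjusted p from 0.12 to 0.13), and Il1rap without CNT-T rat 2, 12 or 13 (0.11 to 0.16). Il1rl1 passed only without CNT-7 rat 11 or CNT-T rat 12, and its adjusted p in edgeR's test reached 0.16.

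**Figure D3:**
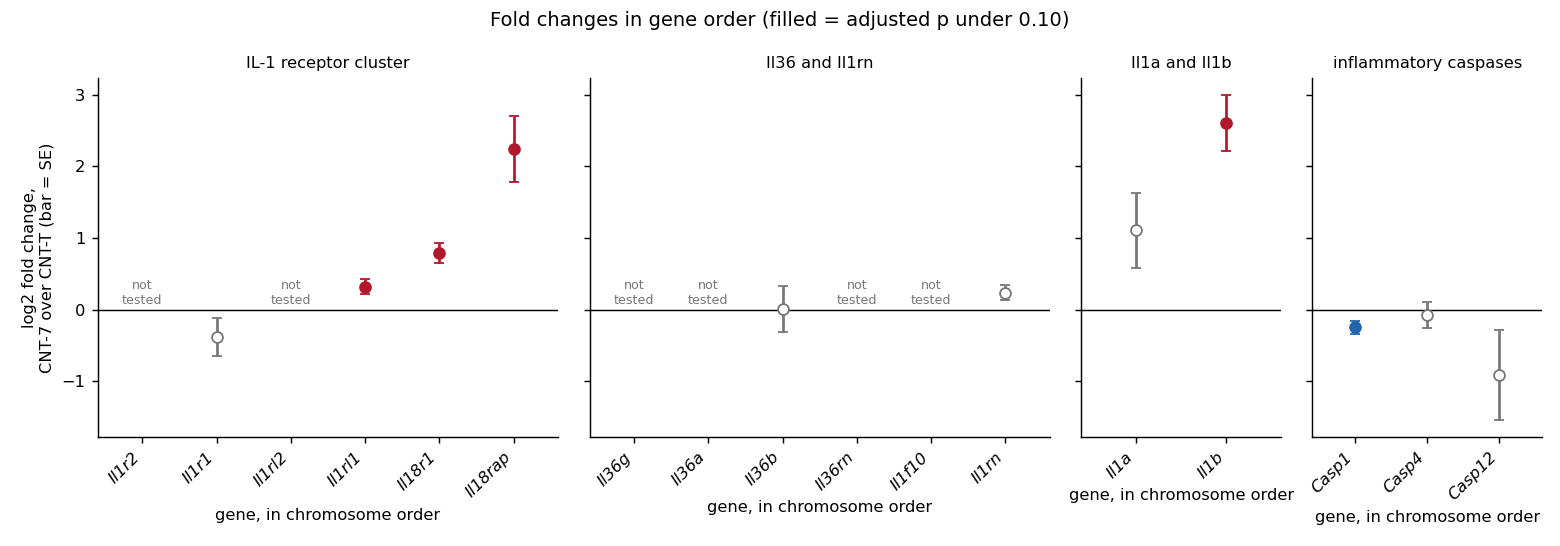
Log2 fold change, CNT-7 relative to CNT-T (vertical axis, bar = SE) of the IL-1 family genes and inflammatory caspases in RefSeq chromosome order, filled points passing the adjusted p of 0.10. In the receptor cluster on chromosome 9 the values rise from -0.38 at Il1r1 through 0.32 at Il1rl1 and 0.79 at Il18r1 to 2.24 at Il18rap, whereas Casp1 and Casp4 lie at -0.25 and -0.075.

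The receptor genes are neighbours on chromosome 9 in RefSeq. In that order the last 3 genes, Il1rl1, Il18r1 and Il18rap, were the ones that passed, and Il1r2 and Il1rl2 were not tested for low counts. Next to Casp1 and Casp4 lies Casp12, a caspase of the same group, whose log2 fold change of -0.91 did not pass (adjusted p = 0.36, edgeR).

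Of the 9 other sensors tested, 1 was higher and 2 lower (33.3%), a share near the 27.9% of all genes tested. Tmem173, which encodes STING, the receptor for the second messenger of cytosolic DNA sensing, rose from 10.5 to 18.5 CPM in CNT-T rats to 32.6 to 45.1 CPM in CNT-7 rats (log2 fold change 1.31, SE 0.17, adjusted p = 0.00097, edgeR). Cgas, the enzyme that makes this messenger, was lower (-0.62, adjusted p = 0.075, edgeR) and passed in only 1 of 8 fits with a rat left out, that without CNT-7 rat 11. The opposite signs of Cgas and Tmem173 stand beside the lower values of Aim2, the other DNA sensor. Nlrc4, which answers bacterial flagellin and secretion systems, fell with a log2 fold change of -0.36 (SE 0.096, adjusted p = 0.027, edgeR), having 47.3 to 54.9 CPM in CNT-7 rats and 54.5 to 72.2 in CNT-T rats. Nlrp1a did not pass (-0.11, adjusted p = 0.38, edgeR).

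Genes of inflammasome activation and restraint gave 5 higher and 1 lower of 15 tested (40.0%, against 27.9% of all genes tested). Nek7, a kinase that NLRP3 needs to assemble, had 43.4, 43.9, 46.9 and 35.4 CPM in CNT-7 rats 3, 5, 10 and 11, and 30.2, 27.9, 29.6 and 33.4 CPM in CNT-T rats 1, 2, 12 and 13. It rose without overlap (log2 fold change 0.49, SE 0.099, adjusted p = 0.0078, edgeR). Panx1, a channel through which ATP leaves cells, rose by 0.43 on the log2 scale (adjusted p = 0.021, edgeR), whereas P2rx7, the ATP-gated channel that triggers NLRP3, did not pass (0.32, adjusted p = 0.42, edgeR). Neither did Txnip, which can bind NLRP3 (0.29, adjusted p = 0.14, edgeR).

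Tnfaip3, the gene of the NF-kappaB inhibitor A20, rose from 8.48 ± 1.04 to 17.9 ± 3.01 CPM (log2 fold change 1.08, SE 0.14, adjusted p = 0.0010, edgeR). Brcc3, a deubiquitinase that acts on NLRP3, was higher by 0.25 (adjusted p = 0.056, edgeR) and passed in 2 of 8 fits with a rat left out. Serpinb9, a protease inhibitor best known to block granzyme B, fell (-0.79, adjusted p = 0.014, edgeR). The largest change in the list was that of Cd9, a tetraspanin of the cell surface, with 128 ± 52.6 CPM after CNT-7 and 10.3 ± 4.21 after CNT-T (log2 fold change 3.63, SE 0.39, adjusted p = 0.00042, edgeR). Cd9 is not a component of the inflammasome. Without it, a count added after the values were seen, the list had 4 higher and 1 lower of 14 tested (35.7%, against 27.9% of all genes tested).

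Effectors of cell death gave 2 higher and 2 lower of 14 tested (28.6%), a share near the 27.9% of all genes tested. Casp6 rose (log2 fold change 1.04, adjusted p = 0.0068, edgeR), and the death-receptor adaptor Fadd was higher by 0.21 (adjusted p = 0.062, edgeR), passing in 2 of 8 fits with a rat left out. Ripk3, the kinase of necroptosis, fell by 0.63 on the log2 scale (adjusted p = 0.026, edgeR). The genes that serve lysis beside Gsdmd did not pass. These were Gsdme, a gasdermin cut by caspase-3 (-0.36, adjusted p = 0.20), Ninj1, which ruptures the membrane (0.036, adjusted p = 0.83), and Casp8 (-0.14, adjusted p = 0.27, all edgeR).

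Downstream of the IL-1 receptor, 3 of 13 signalling genes tested were higher and 0 lower (23.1%, against 27.9% of all genes tested). Myd88, the adaptor shared by IL-1, IL-18, IL-33 and Toll-like receptors, rose from 60.0 ± 3.63 to 78.8 ± 7.58 CPM (log2 fold change 0.39, SE 0.083, adjusted p = 0.0092, edgeR). Peli1, a ubiquitin ligase of this pathway, rose by 0.60 (adjusted p = 0.0044, edgeR). Irak3, which restrains it, was higher by 0.26 (adjusted p = 0.076, edgeR) and passed in 2 of 8 fits with a rat left out.

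**Figure D4:**
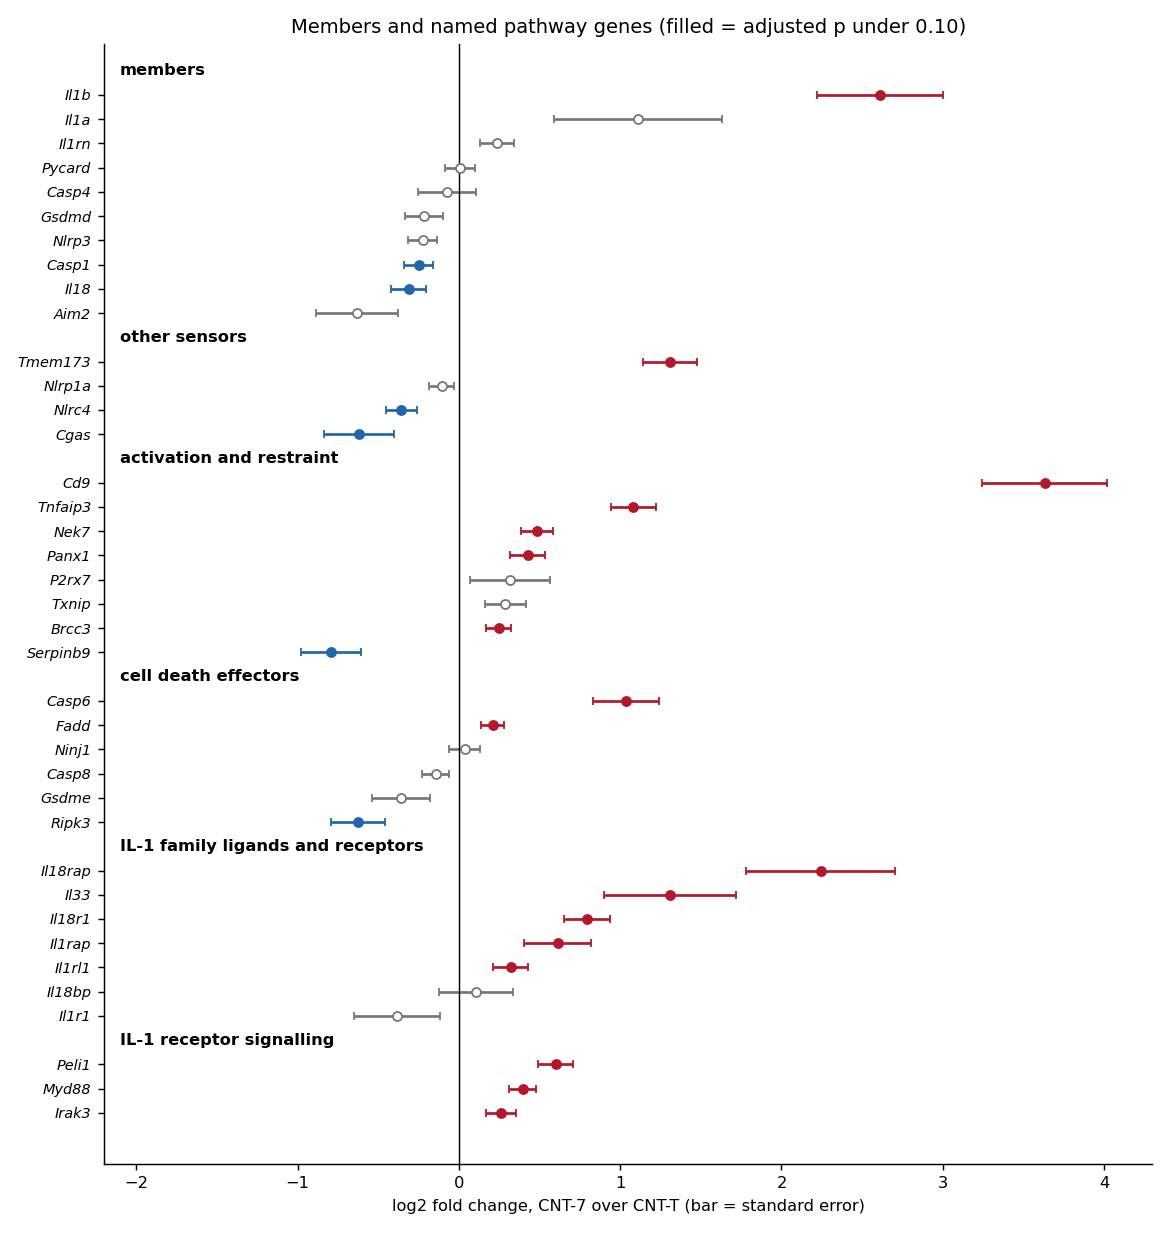
Log2 fold change, CNT-7 relative to CNT-T (horizontal axis, bar = SE) of the 10 genes and of the named genes of 5 related lists, filled points passing an adjusted p of 0.10 in edgeR's test (red higher, blue lower). Il1b at 2.61 is the largest of the 10, and 5 of the named ligands and receptors lie to the right and pass.

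Markers of the sorted cells and of cells that the gate could hold were read beside these genes. All 10 macrophage markers were present, and their summed level was 18439 to 24626 CPM after CNT-7 and 26812 to 39023 after CNT-T. Most of this sum was Lyz2, with means of 17596 and 24362 CPM, which did not pass (adjusted p = 0.1002, edgeR). Of the 10, 6 were lower and 0 higher, where 14.0% of all genes tested were lower and 13.9% higher. Casp1 and Il18 were lower together with Csf1r (log2 fold change -0.33) and Cd68 (-0.34), and the part of the macrophage markers in that result was not tested. Neutrophils also express Il1b. The summed level of 11 neutrophil markers was 33.9 to 63.0 CPM after CNT-7 and 26.3 to 68.5 after CNT-T, Mpo and Cxcr1 being at 0 in all rats. Csf3r, with 18.1 to 57.4 CPM, made up most of this sum. S100a8 was lower after CNT-7 (log2 fold change -1.46, adjusted p = 0.016, edgeR). S100a9 had 3.69 CPM in CNT-7 rat 5, the highest rat for Il1b, and at most 0.652 in the others, and the part of neutrophils in the Il1b result was not tested.

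Some dendritic cell markers were higher after CNT-7, as Il1b was. Of 7, 4 were tested and 3 were higher (Ccr7, Clec9a and Batf3), where 13.9% of all genes tested were higher. Zbtb46 did not pass (log2 fold change -0.22, adjusted p = 0.65, edgeR). The summed level of the 7 markers overlapped, with 13.5 to 19.3 CPM after CNT-7 and 7.34 to 15.7 after CNT-T (exact permutation p = 0.0857). Ccr7, which migrating dendritic cells carry, had 0.985, 3.15, 1.48 and 0.398 CPM in CNT-7 rats 3, 5, 10 and 11, and 0.0326, 0.266, 0 and 0.107 CPM in CNT-T rats 1, 2, 12 and 13. These are 30, 94, 41 and 11 counts after CNT-7 and 1, 9, 0 and 3 after CNT-T, so Ccr7 entered the test through the CNT-7 group. The CNT-7 rats had the same order for Ccr7 as for Il1b, rat 11 being the lowest and rat 5 the highest. Aim2, P2rx7 and Tnfaip3, which are not dendritic cell markers, had this order as well, and its share over all genes was not counted. For Batf3 rat 5 was the lowest of the CNT-7 rats at 7.50 CPM. The 8 lymphocyte markers summed to 2.39 to 9.41 CPM after CNT-7 and 0.394 to 1.35 after CNT-T, without overlap (exact permutation p = 0.0286). Rat 5 was again the highest. Cd2, the only 1 of the 8 tested, was higher (log2 fold change 3.48, adjusted p = 0.00070, edgeR). It entered the test through the CNT-7 group, with 38 to 95 counts against 3 to 9 in CNT-T rats. Without rat 5 the log2 fold change of Il1b was 2.50, with edgeR's adjusted p = 0.0075. The part of dendritic cells and lymphocytes in the Il1b result was not tested. Mesothelial markers were at 0 to 0.369 CPM in all rats.

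**Figure D5:**
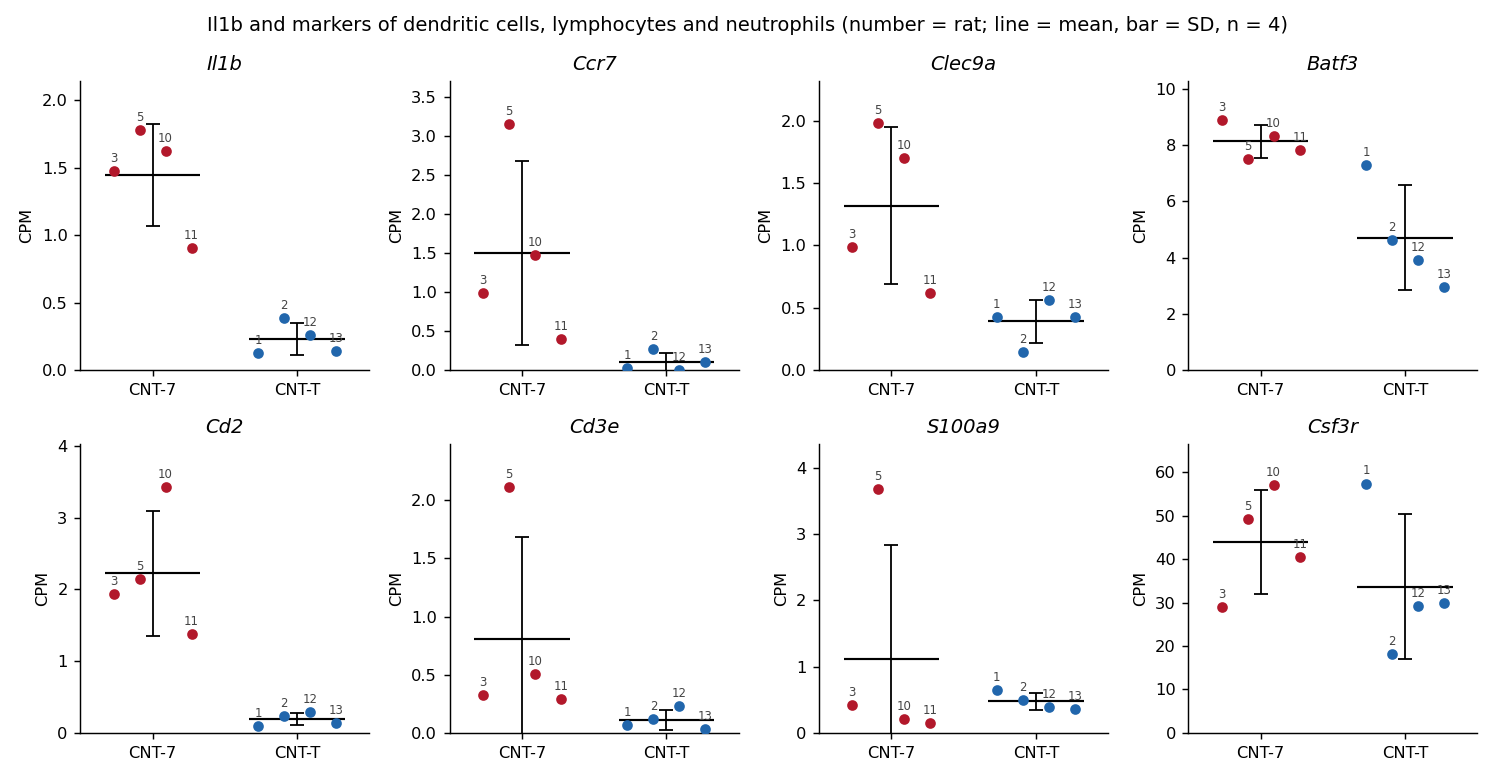
CPM (vertical axes, linear from 0) of Il1b and of markers of dendritic cells (Ccr7, Clec9a, Batf3), lymphocytes (Cd2, Cd3e) and neutrophils (S100a9, Csf3r) in each rat, with the rat number above each point, the mean as a line and the SD as a bar (n = 4). CNT-7 rat 5 is the highest for Il1b at 1.78 CPM and for Ccr7 at 3.15 CPM. The panels are a selection of the markers. Not shown are Zbtb46, S100a8 and Elane, with log2 fold changes of -0.22, -1.46 and -0.68, and Cd3e was below the filter.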

How the data were processed

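Counts were obtained from sorted peritoneal macrophages of 8 rats, 4 given CNT-7 and 4 given CNT-T, which were grouped and numbered by the sample labels. The authors quantified reads with Salmon (version not given in the sources used here) against Ensembl rat cDNA sequences of Rnor_6.0 and deposited estimated counts per gene as whole numbers for 23487 genes, without normalization. Estimated counts divide reads between similar transcripts.

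edgeR 4.0.16 in R 4.3.3 was fitted to the whole table with TMM normalization, the filter of filterByExpr (minimum count 10, minimum total 15) and a quasi-likelihood test, and Benjamini-Hochberg adjustment ran over the 12124 genes tested. The threshold for a call, an adjusted p below 0.10, is that of the study's methods. Each SE was obtained by dividing the size of the log2 fold change (CNT-7 relative to CNT-T) by the root of the F statistic. For ratios, 2 was added as a prior count before the log2 of CPM, with a two-sided exact permutation test over 70 divisions of the rats. Totals ranged from 27195157 to 33732981 counts per rat, and floors of 3 counts cover counting error only.

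The members and lists were chosen with earlier results of these data known. Named genes were the 10 members, 16 direct partners, and up to 5 further called genes per list by size of change. Gbp5, Zbp1, Casp12 and the values of the cell type markers were added after their values were seen. Alternatives were DESeq2 1.42.0, upper-quartile normalization, no filter, an adjusted p under 0.05, a term for the range of the rat numbers, a prior count of 0.5, and leaving out each rat. Scripts were tested on simulated counts. Promoter windows and gene order came from RefSeq GRCr8, which is not the authors' build. Windows were matched by symbol for 8 of the 10 members, Casp4 and Gsdmd having none, and no position was converted between builds. Listed genes such as Nlrp1b, Naip5 and Naip6 were not analysed here. The values of 1 listed gene are not reported here.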

Additional observations from a re-analysis of the deposited data

Results flagged for a closer look

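A rat was singled out where its gap to the nearest rat of its group exceeded Dixon's 95% critical value as a share of the group's range. This was so in 9 of 92 groups of 4 rats examined, and chance alone gives about 4.6. Among the 10 genes it concerned Il1a, for which CNT-T rat 13 had 3.62 CPM against 0.685 to 0.916 in the other CNT-T rats. Among receptors, Il18rap was at 18.4 CPM in CNT-7 rat 3 against 5.0 to 6.03, and at 2.81 in CNT-T rat 2 against 1.37 to 1.61. Il1rap was at 40.6 CPM in CNT-7 rat 10 against 20.2 to 23.6, and at 15.1 in CNT-T rat 12 against 17.9 to 18.4. Il1r2 was at 0.118 CPM in CNT-T rat 2 and at 0 in the other CNT-T rats, below the filter. The inhibitor gene Il18bp had 14.0 CPM in CNT-T rat 13 against 19.9 to 21.1. The sensor gene Nlrp1a had 56.1 CPM in CNT-7 rat 11 against 47.5 to 48.7, and Brcc3 had 94.2 CPM in CNT-T rat 13 against 76.3 to 78.6.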

How the results depend on the processing

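The number of the 10 genes called, 3, was 5 with DESeq2 (1 higher, 4 lower), 1 at an adjusted p under 0.05, and 1 to 5 with a rat left out, being 1 without CNT-7 rat 3 or 5 or CNT-T rat 12 and 5 without CNT-T rat 1. It was 3 with upper-quartile normalization and with no filter, and 4 with the term for the rat numbers, which added Nlrp3. DESeq2 added Nlrp3 and Aim2, with adjusted p of 0.093 and 0.071. For the pathway lists 21 genes became 15 to 22 with a rat left out and 23 with DESeq2. The number of ratios past the threshold, 2, was 0 to 0 with a rat left out. The smallest exact permutation p that 4 against 3 rats allow is 0.0571, so that this count was nearly fixed in advance and says little about single rats. The ratio of Il1r2 to Il1r1, among the 2 that passed with all 8 rats, was set by the prior count and Il1r1 in CNT-T rats 1, 12 and 13. The other, Il1rn to Il1b, passed after adjustment only because Il1r2 to Il1r1 had the same p. The sign of the log2 fold change turned with some rat left out for Pycard (-0.053 to 0.070), Casp4 (-0.20 to 0.087), Il18bp (-0.062 to 0.30) and Ninj1 (-0.00037 to 0.11), none of which was called with all 8 rats. Upper-quartile normalization moved the median log2 fold change of all genes by -0.0014. No paired analysis was possible because no rat number occurs in both groups. Counts of Il1b and Il1r2 were low, and 3 counts, the floor, are 0.0887 to 0.109 CPM.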
